A study of Mus musculus with 4 samples.

Results

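A list of 40 cell division cycle genes, of the 31053 genes measured, was followed through every cell type and library of a mouse skin data set. The members were chosen by name: 15 genes of S phase, when DNA is copied, 23 genes of G2 and mitosis, when the copied chromosomes are condensed and separated, and 2 genes of broader use in dividing cells, Stmn1 and Hmgb2. The 15 S members were the cyclins Ccne1 and Ccne2, the transcription factor E2f1, the loading factor Cdc6, the helicase subunits Mcm2 to Mcm7, the sliding clamp Pcna and the nucleotide makers Tyms, Rrm1, Rrm2 and Tk1. The 23 G2/M members were Mki67, Top2a, Birc5, Ccnb1, Ccnb2, Cdk1, Ube2c, Cenpa, Cenpe, Cenpf, Aurka, Aurkb, Plk1, Bub1, Bub1b, Kif11, Kif20a, Kif23, Tpx2, Cdc20, Ccna2, Nusap1 and Prc1. All 40 were found in the count matrices by name.

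The study measured RNA in single back skin cells of BALB/c mice by 3′ droplet sequencing with unique molecular identifiers (UMIs), which count RNA molecules. One library came from WT mice and another from Cd226-/- mice, which lack an activating receptor of lymphocytes, after treatment with the carcinogen DMBA (25 µg, once) and, from 1 week later, the tumour promoter TPA (5 µg, weekly, 3 times). The design text puts the cell harvest 3 weeks after DMBA/TPA treatment; each treated library pooled 3 mice, and its CD45+ and CD45- cells, immune and non-immune, were sorted and mixed 1:1. From untreated (naive) mice the CD45- cells formed 1 library and the CD45+ cells another, each a 1:1 pool of WT and Cd226-/- cells, so that naive values are of both genotypes and immune and non-immune naive cells come from different libraries. The age of the mice is not given in the sources used here. With 1 library in each group, differences have no replicate check and were not tested. The 95% intervals are exact binomial for shares and exact Poisson or conditional binomial for UMIs, cover counting error only, and treat UMIs of 1 cell as separate although they are not. Mix of cells, sort fraction, depth and treatment cannot be told apart between naive and treated libraries.

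The division cycle runs from G1 into S phase when cyclin D and cyclin E kinases release E2F transcription factors from the pocket proteins of the retinoblastoma family, and the S genes are copied. The G2/M genes follow later and are held back in resting cells by a repressor complex that binds their promoters. In skin, basal keratinocytes and hair matrix cells divide throughout life, dermal fibroblasts of the adult are mostly at rest, and neutrophils leave the marrow after their last division. TPA is known for driving keratinocyte division and drawing immune cells into the skin.

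Promoters of 7 members are shown because the S and G2/M members differ in which of these control sequences they hold. Of the 40 members, 33 had a promoter in the RefSeq table of build GRCm38.p6, which gives 250 bases before and 50 after each start. The stretches below are the 180 bases just before the start, 5′ to 3′ on the gene's strand. Capitals mark the E2F core (spelled TTGGCGC, spelled TTCGCGC, spelled TTCCCGC or spelled TTGCCGC), the cell cycle homology region CHR (spelled TTTGAA or spelled TTCGAA) and the CCAAT box (spelled as in its name), each on either strand, with overlapping matches all marked. Ccnb2 is at chr9:70421555-70421734 on the minus strand, Top2a at chr11:99024190-99024369 on the minus strand, Kif11 at chr19:37376202-37376381 on the plus strand and Mki67 at chr7:135716380-135716559 on the minus strand, all G2/M members. Mcm5 at chr8:75109329-75109508 on the plus strand, Mcm6 at chr1:128359706-128359885 on the minus strand and Rrm1 at chr7:102441515-102441694 on the plus strand are S members.
Ccnb2: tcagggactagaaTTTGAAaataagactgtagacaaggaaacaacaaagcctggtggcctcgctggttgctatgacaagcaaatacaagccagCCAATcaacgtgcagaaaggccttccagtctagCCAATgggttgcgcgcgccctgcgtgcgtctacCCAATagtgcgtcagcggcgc
Top2a: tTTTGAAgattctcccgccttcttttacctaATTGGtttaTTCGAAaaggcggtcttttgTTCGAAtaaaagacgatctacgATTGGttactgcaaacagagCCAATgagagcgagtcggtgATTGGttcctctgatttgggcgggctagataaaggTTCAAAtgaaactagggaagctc
Kif11: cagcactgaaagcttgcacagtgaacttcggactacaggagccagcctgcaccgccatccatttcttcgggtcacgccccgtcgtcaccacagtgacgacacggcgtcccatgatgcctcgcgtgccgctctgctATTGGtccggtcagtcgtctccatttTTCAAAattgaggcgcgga
Mki67: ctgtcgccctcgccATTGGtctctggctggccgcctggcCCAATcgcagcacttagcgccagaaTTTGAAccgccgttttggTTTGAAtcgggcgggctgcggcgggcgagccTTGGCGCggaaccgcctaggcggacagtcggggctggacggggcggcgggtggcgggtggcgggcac
Mcm5: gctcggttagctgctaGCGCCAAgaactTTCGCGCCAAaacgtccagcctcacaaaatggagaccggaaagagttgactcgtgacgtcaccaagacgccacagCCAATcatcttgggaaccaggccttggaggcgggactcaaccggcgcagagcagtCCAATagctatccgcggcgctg
Mcm6: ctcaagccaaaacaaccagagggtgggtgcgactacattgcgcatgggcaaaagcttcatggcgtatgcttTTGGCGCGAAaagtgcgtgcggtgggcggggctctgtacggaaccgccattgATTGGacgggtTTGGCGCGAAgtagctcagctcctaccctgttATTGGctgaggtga
Rrm1: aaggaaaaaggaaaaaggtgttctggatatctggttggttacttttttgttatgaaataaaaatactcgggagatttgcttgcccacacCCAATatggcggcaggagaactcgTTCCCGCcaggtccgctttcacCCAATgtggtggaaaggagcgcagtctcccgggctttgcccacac

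The printed Top2a stretch held 4 CHR and 4 CCAAT matches, and Ccnb2 held 1 CHR and 3 CCAAT matches, whereas Mcm5 and Mcm6 held 3 and 4 E2F core matches and no CHR. Over the windows of 250 bases before to 50 after the start, 15 of 19 matched G2/M members (78.95%) and 2 of 13 matched S members (15.38%, Mcm2 and Mcm7) held a CHR, beside 21.66% of the 27025 genes in the table. A CCAAT box was in 17 of 19 G2/M members (89.47%) and 8 of 13 S members (61.54%), beside 41.06% of all genes in the table. The E2F core was in 3 of 19 G2/M members (15.79%, Ccnb1, Cdk1 and Mki67) and 7 of 13 S members (53.85%), beside 10.86% of all genes. Where a gene had several promoters in the table, a match in any of them was counted. Birc5 and Nusap1 of the G2/M members and Ccne1, E2f1, Tk1 and Tyms of the S members held none of these letters in the window. A match is a description of letters, not a bound site or a cause, and no match says nothing about the factor.

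Across the 4 libraries, 27496 cells passed the filters on genes, UMIs, mitochondrial share and doublets, with median UMIs per cell between 6555.5 and 9070 and summed gene UMIs between 42043869 and 81406730 per library. The naive CD45+ library stood apart: 2307 of its 5913 barcodes were over the mitochondrial limit, beside 506 to 1128 in the others. Between 9 and 21 barcodes were shared by each pair of libraries. Clusters made without cell cycle genes gave 15 marker-defined classes with 26763 cells, and 733 cells stayed unnamed. Cd226 was counted at 3.18 counts scaled to the library total (CPM) in WT treated and 1.89 in Cd226-/- treated skin, with 111 and 49 UMIs in lymphocyte-like cells. The 3′ UMIs do not check the genotype label, as the deleted piece of the gene is not stated in these sources.

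A cell was called cycling when, after thinning to 2000 UMIs, it held UMIs of at least 3 different members of the 38 S and G2/M genes. Of 26511 cells deep enough, 601 were called, 545 of them in named classes, and 985 cells under 2000 UMIs were left out. The call is a cut on a range, with 785 cells at exactly 2 members and 134 at exactly 3. In 410 of the called cells S and G2/M members were found together, 117 had G2/M members alone and 74 S members alone. Cycling cells made up 3.69% of WT treated cells (251 of 6810), 2.96% of Cd226-/- treated cells (187 of 6321), 0.393% of naive CD45- cells (40 of 10190) and 3.86% of naive CD45+ cells (123 of 3190). Cycling cells were the deeper ones in every library before thinning, with median UMIs of 13867 against 8459 for the other cells in WT treated and 8513 against 6676 in naive CD45- skin. Cells removed as doublets were called cycling at 0.508% to 5.11% across libraries.

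Different cells supplied the cycling pool in each library. Of the WT treated cycling cells, 39.8% were keratinocyte-like and 21.9% lymphocyte-like. In the Cd226-/- treated library 32.6% were lymphocyte-like, 12.8% fibroblast-like, 11.2% dendritic-like and 6.42% keratinocyte-like, and 19.3% were in unnamed clusters. The naive CD45- cycling cells were 47.5% fibroblast-like and 27.5% keratinocyte-like, and the naive CD45+ ones 32.5% dendritic-like, 30.9% macrophage-like and 30.1% lymphocyte-like. These makeups are set in part by the sort and by how many cells of each class were caught.

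**Figure D1:**
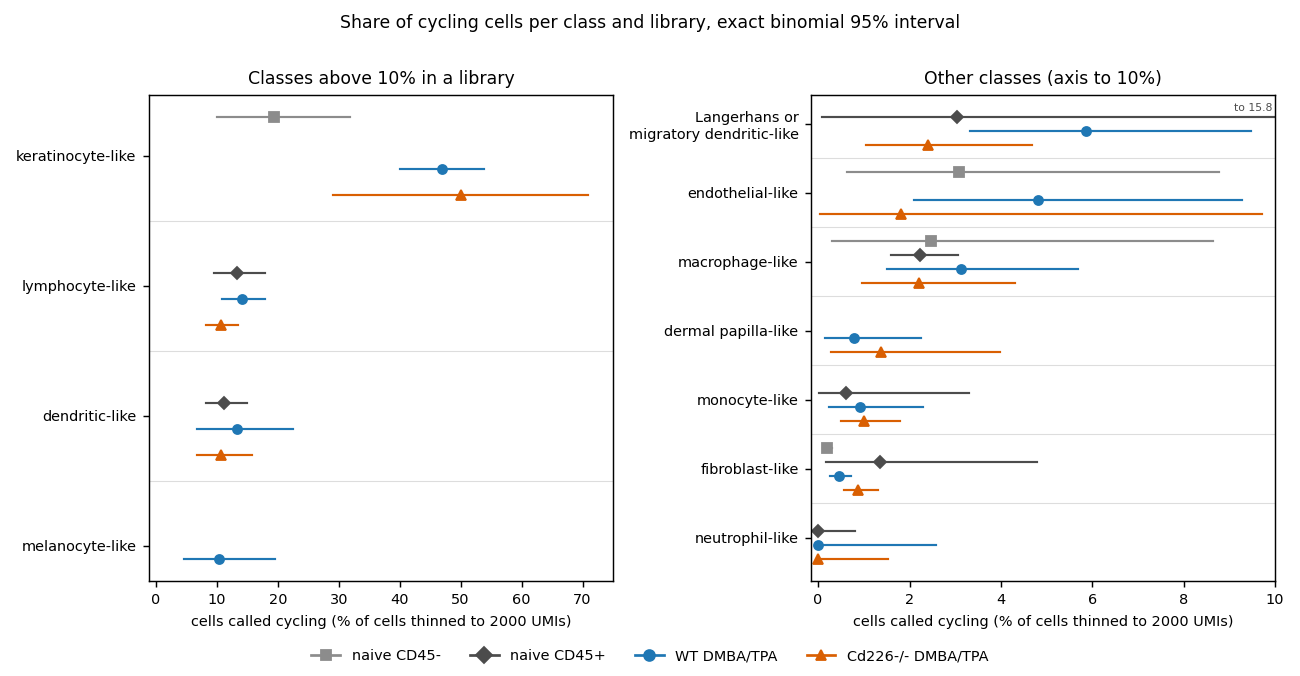
Share of cells called cycling after thinning to 2000 UMIs, in percent on the x axis, with exact 95% binomial intervals. Classes are on the y axis with a marker for each library, and classes or libraries with few cells are left out. The panels hold classes above 10% in a library and other classes on an axis to 10%. Keratinocyte-like cells reached 46.9% and 50% in the treated libraries, and neutrophil-like cells were at 0 in each library.

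Keratinocyte-like cells had the highest shares of cycling cells in both treated libraries; in the naive CD45- library 3 of 14 dendritic-like cells (21.4%) and 1 of 5 lymphocyte-like cells (20%) were also called. Of the thinned cells, 100 of 213 were cycling in WT treated skin (46.9%, interval 40.1 to 53.9), 12 of 24 in Cd226-/- treated skin (50%, 29.1 to 70.9) and 11 of 57 in naive skin (19.3%, 10.0 to 31.9). The WT treated and naive intervals did not overlap, and the 2 treated libraries could not be separated at 24 cells. Unthinned shares were 69.0%, 79.2% and 33.3% in the same order, at median depths of 13957, 17485 and 5875 UMIs.

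Lymphocyte-like and dendritic-like cells of the treated and naive CD45+ libraries had shares above 10%, with no separation between naive and treated skin after thinning. Among lymphocyte-like cells 14.1% (10.8 to 17.9) were cycling in WT treated, 10.6% (8.21 to 13.4) in Cd226-/- treated and 13.3% (9.51 to 17.8) in naive CD45+ skin. Dendritic-like cells stood at 13.3% (6.81 to 22.5), 10.6% (6.69 to 15.8) and 11.2% (8.15 to 15) in the same order. In both classes all intervals of these thinned shares overlapped. Unthinned shares, in which depth is not evened out, were higher, from 19.2% to 31.0% and from 21.7% to 42.4%. Without thinning the lymphocyte-like intervals of Cd226-/- treated (16.19 to 22.55) and naive CD45+ skin (25.6 to 36.72) did not overlap. Melanocyte-like cells were caught in number only in the WT treated library, where 8 of 77 were cycling (10.4%, 4.59 to 19.4).

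Lower shares were found in the remaining classes. Langerhans or migratory dendritic-like cells were cycling at 5.86% (3.32 to 9.48) in WT treated and 2.40% (1.04 to 4.68) in Cd226-/- treated skin. Endothelial-like cells were at 4.82% (2.10 to 9.27) in WT treated and 3.09% (0.642 to 8.77) in naive CD45- skin. Macrophage-like cells stayed between 2.21% and 3.13% in the treated and naive CD45+ libraries, with overlapping intervals. Monocyte-like cells were at 0.602% to 1.00%, and dermal papilla-like cells at 0.779% in WT and 1.38% in Cd226-/- treated skin.

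Among neutrophil-like cells, which no longer divide, none was called cycling after thinning of 141 WT treated, 241 Cd226-/- treated and 457 naive CD45+ cells. Taking 3 cells over the number thinned as the limit, this allows shares of up to 2.13%, 1.24% and 0.656%. Exact binomial intervals reach higher than these limits. Their median depth of 2866 to 3251 UMIs was near the thinning depth, and unthinned they were called at 0.380% to 1.90%. These limits are set by how many neutrophil-like cells were caught and are not a measured rate of false calls. A share under the limit of its library could not be separated from the neutrophil-like cells by the share alone. This held for fibroblast-like cells in WT treated (0.454%) and Cd226-/- treated skin (0.877%). It also held for monocyte-like cells and for dermal papilla-like cells of WT treated skin (0.779%). Dermal papilla-like cells of Cd226-/- treated skin (1.38%) were just over the limit of 1.24% and are not read as separated. Naive CD45- fibroblast-like cells (0.194%) were under the naive CD45+ limit.

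Fibroblast-like cells held few cycling cells in a very large class. The shares were 0.194% (0.117 to 0.302, 19 of 9816) in naive CD45-, 0.454% (0.269 to 0.717, 18 of 3965) in WT treated and 0.877% (0.563 to 1.30, 24 of 2736) in Cd226-/- treated skin. Without thinning they were 2.04%, 10.6% and 16.3%, at median depths of 6639, 10170 and 12670 UMIs, which rise in the same order. These cells kept fibroblast markers: a median of 3.92% of their UMIs was from the 10 fibroblast markers, beside 7.25% in the other fibroblast-like cells, and general immune markers had a median of 0 in both. The order of the treated libraries depended on the clustering: with cell cycle genes kept among the clustering genes, 44 of 63 cycling fibroblast-like cells moved to unnamed clusters, and the shares left were 0.0734% in Cd226-/- treated, 0.177% in WT treated and 0.096% in naive skin. Under that same change 122 of 123 cycling keratinocyte-like and 153 of 154 lymphocyte-like cells kept their class, but only 22 of 75 dendritic-like cells did.

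The members did not mark cycling cells equally well. Each member was set against cells called cycling by the remaining members alone, over all named classes. Ccna2, the cyclin of S phase and G2, was 459-fold higher in cycling than in other cells (349.5 to 614), and 94.3% of its UMIs lay in them. Bub1, a spindle checkpoint kinase, was 396-fold higher, Ccnb1, the mitotic cyclin, 346-fold and Ube2c, which tags cyclins for destruction, 243-fold. Top2a, which untangles copied DNA, and Mki67, which coats mitotic chromosomes, stood at 182-fold and 129-fold. Of the 23 G2/M members, 22 had over 50% of their UMIs in cycling cells, Kif23 with 55.5% the lowest of these. Among the 15 S members only Tk1 (79.9%), Rrm2 (76.3%) and Ccne2 (56.2%) did. The call itself draws on more G2/M than S members, so this contrast between the roles is set in part by the call. Pcna was 5.10-fold higher in cycling cells with 15% of its UMIs there, and E2f1 was 2.09-fold higher with 6.94%. Most UMIs of Pcna, which also serves DNA repair, and of E2f1 thus came from cells that held under 3 other members after thinning. Of the broad members, Stmn1, which destabilises microtubules, was 85.4-fold and Hmgb2, a chromatin protein, 22.6-fold higher in cycling cells.

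**Figure D2:**
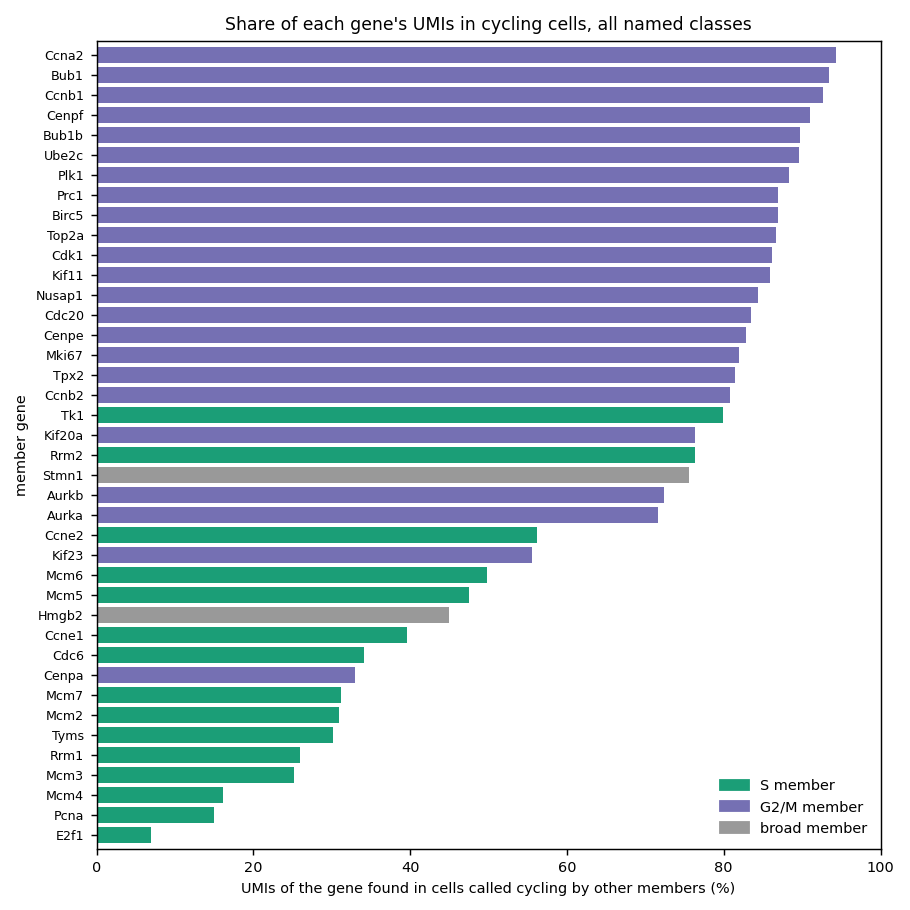
Percent of each member's UMIs, on one axis, that lay in cells called cycling by the other members over all named classes; bars are S members in green, G2/M members in purple and broad members in grey. Ccna2 reaches 94.3%, and Cenpa at 32.9%, Pcna at 15% and E2f1 at 6.94% stand apart from it.

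Cenpa was the G2/M member outside the pattern, with 32.9% of its UMIs in cycling cells. It codes for the histone variant that marks centromeres, on chr5:30666777-30674830 of GRCm38, and no other annotated gene overlaps it. In fibroblast-like cells Cenpa was 185-fold higher in cycling cells, but only 7.50-fold in macrophage-like, 4.87-fold in dendritic-like and 2.26-fold in lymphocyte-like cells. In cells without a UMI of any other S or G2/M member, Langerhans or migratory dendritic-like cells still held Cenpa at 249 CPM in Cd226-/- treated (230 to 269) and 168 CPM in WT treated skin (150 to 188). Lymphocyte-like cells of that kind held 236 CPM in Cd226-/- treated, 127 in WT treated and 51.2 in naive skin, and fibroblast-like ones 2.43, 1.48 and 0.591 CPM. The 3 libraries of lymphocyte-like cells did not overlap in these Poisson intervals (211 to 264, 107 to 151 and 37.47 to 68.3).

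Cenpa was unevenly spread over the lymphocyte clusters. The cluster led by Cd7, Trat1, Trdc and Tcrg-C1, among them genes of gamma delta T cells, held 445 of the 687 Cenpa UMIs of the class in Cd226-/- treated, 141 of 393 in WT treated and 7 of 210 in naive CD45+ skin. There it stood at 885 CPM (804 to 971, 125 cells) in Cd226-/- treated, 761 CPM (640 to 897, 60 cells) in WT treated and 39.5 CPM (15.9 to 81.3, 35 cells) in naive CD45+ skin. The other 22 G2/M members of that cluster summed to 573, 286 and 78.9 CPM. The larger lymphocyte cluster, led by Il17a, Il22 and Il17f, held Cenpa at 95.8, 129 and 122 CPM in the same order, beside 603, 1164 and 1210 CPM for the other G2/M members. Cenpa was therefore high in treated skin in the cluster with Trdc and not in the one with Il17a.

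S and G2/M members were then summed per class, and their ratio differed widely between classes. In naive fibroblast-like cells the S members summed to 80.8 CPM and the G2/M members to 14.4 CPM, a ratio of 5.61 (5.24 to 6.0). WT treated fibroblast-like cells had 100.5 and 35.1 CPM, a ratio of 2.86 (2.71 to 3.03), and Cd226-/- treated ones 118 and 87.5 CPM, a ratio of 1.35 (1.29 to 1.42). The ratio was lowest where the G2/M sum was highest. Among cycling fibroblast-like cells alone it was 0.285 in naive, 0.197 in WT treated and 0.186 in Cd226-/- treated skin. Cycling cells held 60.9%, 69.8% and 78.8% of the class's G2/M UMIs but 3.09%, 4.79% and 10.8% of its S UMIs in the same order.

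Keratinocyte-like and lymphocyte-like cells had ratios under 1 in the libraries given here. Keratinocyte-like cells had 1001 CPM of S and 1940 of G2/M members in WT treated skin (ratio 0.516) and 419 and 978 CPM in naive skin (0.429). Lymphocyte-like cells had ratios of 0.497 in naive and 0.343 in each treated library. WT treated melanocyte-like cells had 247 CPM of S and 1292 CPM of G2/M members, a ratio of 0.192 (0.167 to 0.219), whereas the 12 melanocyte-like cells of the Cd226-/- treated library had 734 and 291 CPM, a ratio of 2.52 (1.73 to 3.74). That last ratio is largely of 1 cycling cell, which held 78 of the 101 S UMIs and 28 of the 40 G2/M UMIs. Macrophage-like cells were near 1, at 1.16 (1.10 to 1.21) in naive CD45+, 0.666 (0.582 to 0.761) in WT treated and 0.878 (0.768 to 1.00) in Cd226-/- treated skin. At the other end, WT treated lymphatic endothelial-like cells had 107 S UMIs and 8 G2/M UMIs, 279 against 20.8 CPM.

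**Figure D3:**
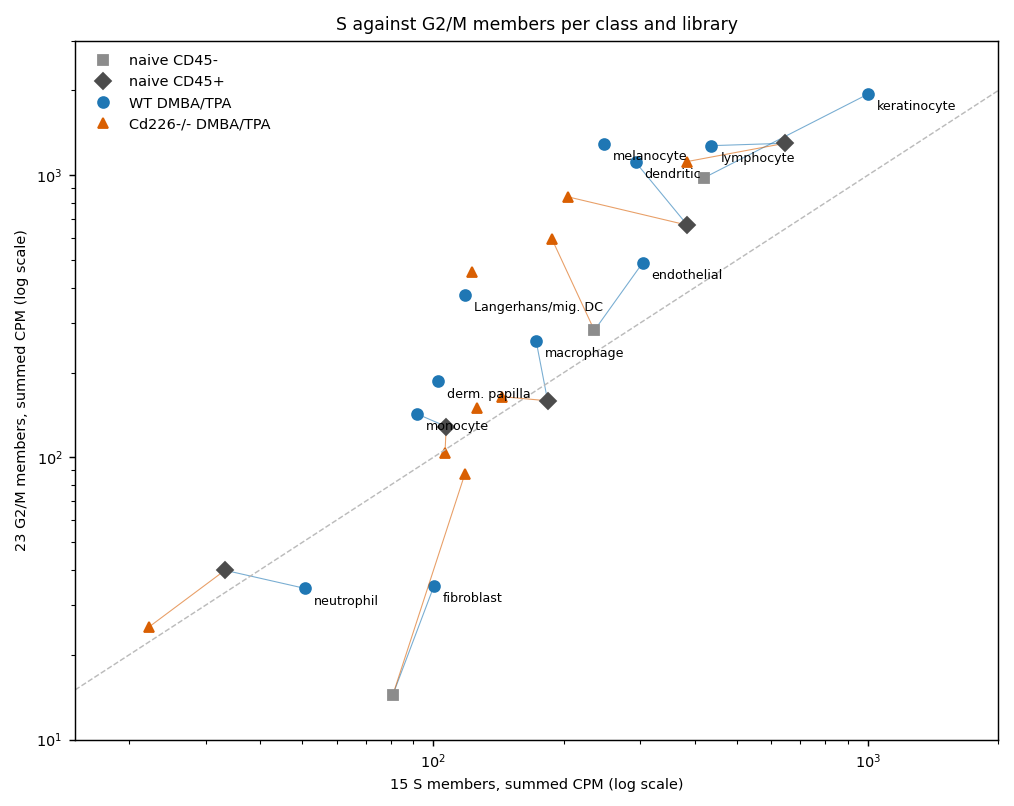
Summed S members (x axis) against summed G2/M members (y axis), both in CPM on log axes, for classes and libraries with enough cells and G2/M UMIs. Lines join naive to treated libraries of a class and the dashed line is equality. Fibroblast-like cells lie under the dashed line with 80.8 against 14.4 CPM in naive skin, and keratinocyte-like cells above it with 1001 against 1940 CPM in WT treated skin.

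**Figure D4:**
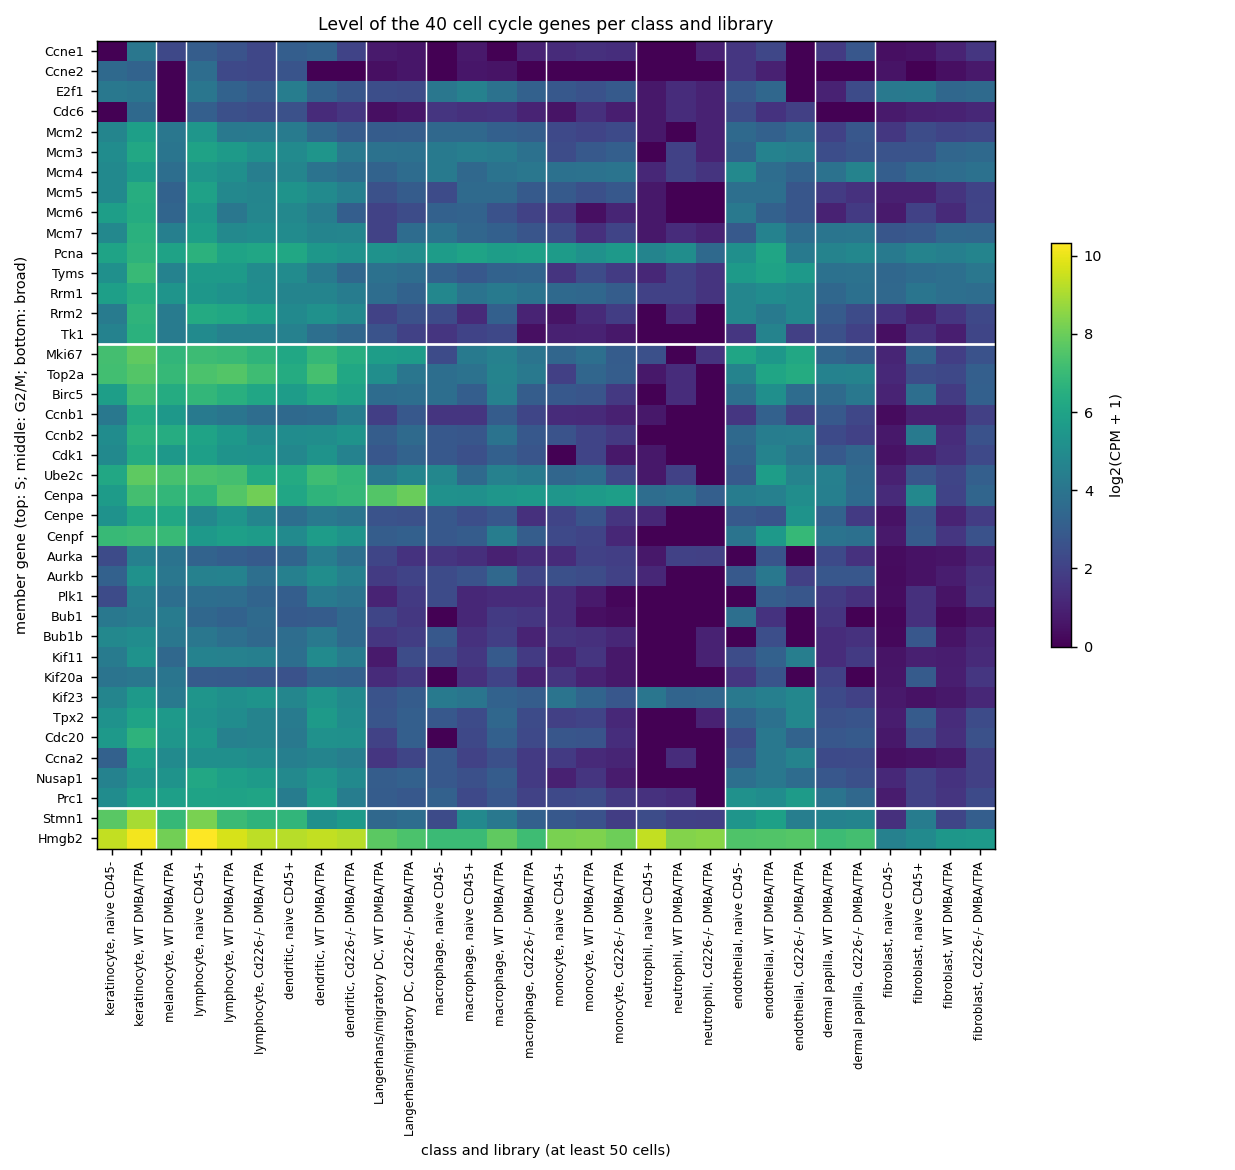
Level of each of the 40 members, as log2(CPM + 1) in colour, in every class and library of at least 50 cells; members are grouped by role. The columns of keratinocyte-like, lymphocyte-like and dendritic-like cells are high over the whole list, and fibroblast-like columns are high in few S members such as Pcna and E2f1.

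Taken as a whole class, treated fibroblast-like cells held more RNA of nearly every G2/M member than naive ones, and those of the Cd226-/- library more than those of the WT library. A member was compared where both libraries together held at least 50 of its UMIs, and counted at 1.5-fold. Against naive CD45- skin, WT treated cells had 27 members higher and 1 lower among the 36 that passed, where 20% of all 12793 genes were higher and 12.0% lower. Cd226-/- treated cells had 35 higher and 1 lower of 39, against 24.2% and 14.6% of 12727 genes. Between the treated libraries 28 of 38 were higher in Cd226-/- and none lower, against 6.56% and 6.31% of 12415 genes. A member passing the minimum through its high library alone had to differ, so these counts are a description. The first 2 comparisons share the naive library. Median log2 differences of the G2/M members that passed were 1.34, 2.77 and 1.28, beside 0.18, 0.18 and 0.03 for all genes compared. Those of the S members were 0.60, 0.85 and 0.26. Bub1, with 7 to 17 UMIs per library, passed in none of the comparisons.

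Among the S members, 8 of 15 were 1.5-fold higher in WT treated and 11 of 15 in Cd226-/- treated than in naive cells, with all 6 Mcm genes and Tk1 in both counts. Tk1, which salvages thymidine, stood at 0.353 CPM (25 UMIs) in naive, 0.836 CPM (38) in WT treated and 3.49 CPM (131) in Cd226-/- treated cells. The WT treated value was 2.37-fold and the Cd226-/- value 9.89-fold (6.41 to 15.8) above naive, and the Cd226-/- to WT fold was 4.17 (2.89 to 6.16). Mcm6, a subunit of the replicative helicase, went from 0.677 to 1.36 and 3.38 CPM, and Cd226-/- was 2.48-fold above WT (1.82 to 3.41). Its partner Mcm7 went from 5.77 to 10.1 and 9.61 CPM, with a Cd226-/- to WT fold of 0.952 (0.827 to 1.09). Mcm7 overlaps the gene Cops6 and microRNA genes, and Tk1 overlaps Afmid. Whether UMIs were assigned by strand is not given in the sources used here.

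The abundant S members Pcna and Rrm1 differed little between libraries, and E2f1 went the other way. Pcna stood at 17.8 CPM (1261 UMIs) in naive, 21.2 CPM (965) in WT treated and 24.5 CPM (922) in Cd226-/- treated cells, folds of 1.19 (1.10 to 1.30) and 1.38 over naive. Rrm1, the large subunit of ribonucleotide reductase, was at 10.2, 12.7 and 11.9 CPM, while its small subunit Rrm2 was at 1.82, 2.11 and 3.73 CPM, 1.76-fold higher in Cd226-/- than in WT. E2f1 was the 1 member lower in both treated libraries, at 16.9 CPM (1198 UMIs) in naive, 10.1 CPM (459) in WT treated and 10.9 CPM (410) in Cd226-/- treated cells. Its folds were 0.597 (0.535 to 0.666) and 0.646 (0.576 to 0.723). No single fibroblast-like cell held more than 5 UMIs of E2f1, and 10.9% of naive cells held at least 1. Only 5 S members, Ccne1, Mcm5, Mcm6, Rrm2 and Tk1, were 1.5-fold higher in Cd226-/- than in WT treated cells.

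The mitotic cyclins and their kinase had some of the largest folds over naive. Ccnb1 stood at 0.240 CPM (17 UMIs) in naive, 0.902 CPM (41) in WT treated and 2.90 CPM (109) in Cd226-/- treated fibroblast-like cells. It was 3.76-fold (2.09 to 7.06) and 12.1-fold (7.22 to 21.5) above naive, and 3.22-fold higher in Cd226-/- than in WT. Its kinase Cdk1 was at 0.409, 1.67 and 3.86 CPM, and its sister cyclin Ccnb2 at 0.578, 1.5 and 5.11 CPM. Ccna2 had the largest fold between the treated libraries, with 0.353 CPM (25 UMIs), 0.594 CPM (27) and 2.87 CPM (108), 4.84-fold (3.15 to 7.68) higher in Cd226-/- than in WT. Its WT treated level was 1.68-fold above naive with an interval of 0.941 to 3.03, and Ccna2 overlaps the gene Exosc9.

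Chromosome and centromere genes were among the G2/M members with the most UMIs. Top2a stood at 1.30 CPM (92 UMIs) in naive, 3.78 CPM (172) in WT treated and 7.64 CPM (287) in Cd226-/- treated cells, with 20, 42 and 54 cells holding it. The folds over naive were 2.92 (2.25 to 3.80) and 5.89 (4.64 to 7.53), and Cd226-/- was 2.02-fold above WT (1.67 to 2.45). Mki67 was at 1.11, 2.77 and 5.16 CPM, 1.86-fold higher in Cd226-/- than in WT. Cenpa, low at rest in this class, was at 1.37, 3.21 and 9.45 CPM, and Cenpf, a kinetochore protein, at 0.621, 2.13 and 5.14 CPM. None of these groups of UMIs lay in a single cell: the richest cell held 26, 41 and 36 of the Top2a UMIs.

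Spindle, checkpoint and exit genes followed, with some exceptions in WT treated cells. Birc5, of the complex that corrects spindle attachment, was at 1.02 CPM in naive, 2.46 CPM in WT treated and 7.98 CPM in Cd226-/- treated cells, 3.24-fold higher in Cd226-/- than in WT (2.60 to 4.06). Plk1, a mitotic kinase, was at 0.282, 0.462 and 1.97 CPM, 4.26-fold higher in Cd226-/- than in WT (2.60 to 7.29). Cdc20, which starts the separation of chromosomes, was at 0.606, 1.63 and 4.95 CPM, and Ube2c at 0.945, 3.52 and 7.85 CPM. Kif23, a motor of cell cleavage, was at 0.621, 0.594 and 1.2 CPM, with a WT to naive fold of 0.957 (0.570 to 1.58). Nusap1, a spindle protein, was at 1.27, 1.87 and 2.85 CPM and reached 1.47-fold in WT treated cells. The broad members Stmn1 and Hmgb2 were at 1.71, 3.43 and 7.4 CPM and at 22.2, 43.7 and 46.8 CPM.

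**Figure D5:**
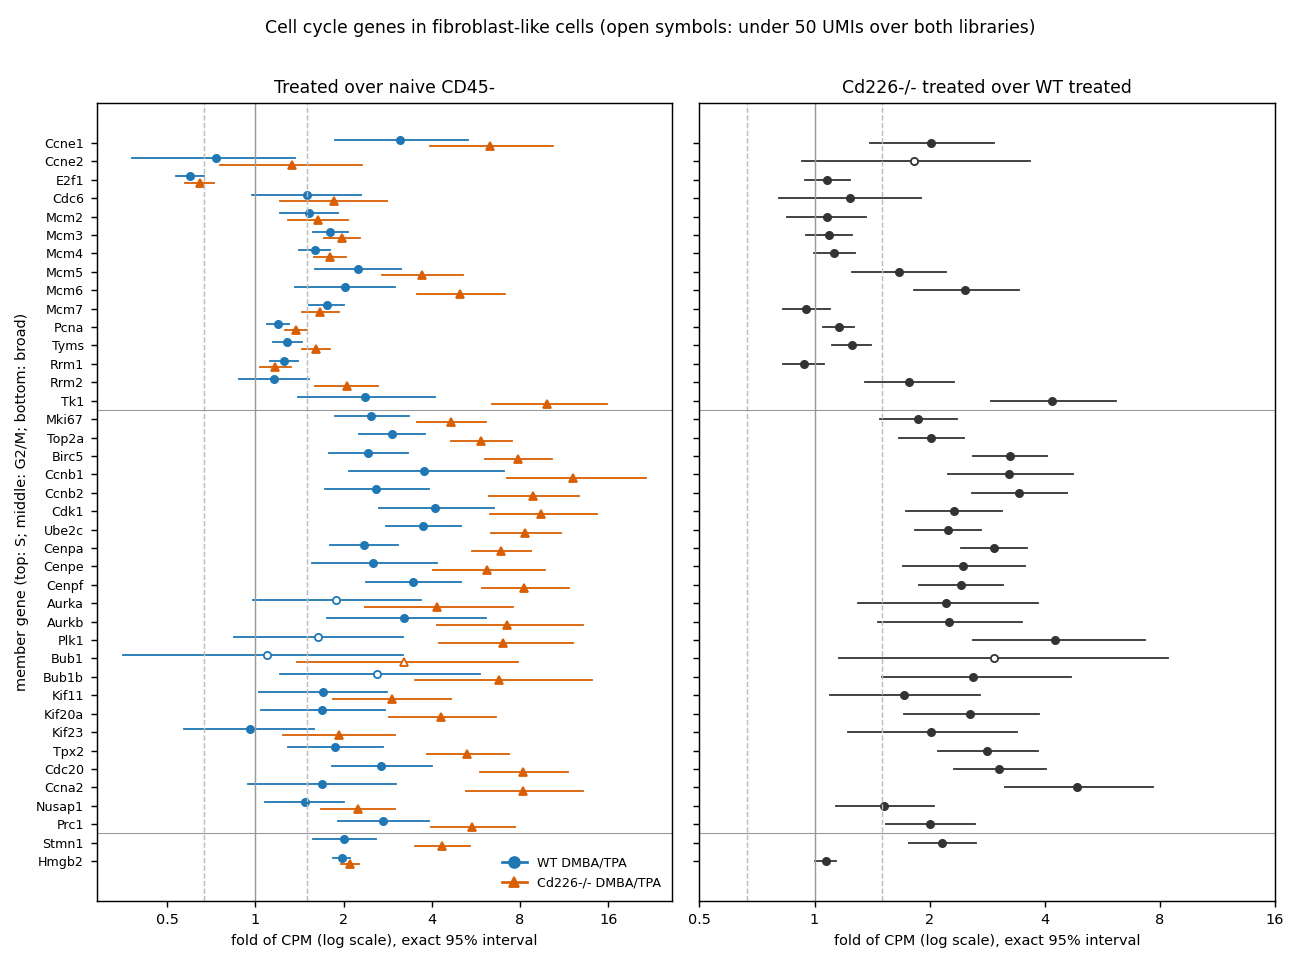
Folds of each member in fibroblast-like cells on a log axis with exact 95% intervals: on the left WT (blue circles) and Cd226-/- treated (orange triangles) over naive CD45- cells, on the right Cd226-/- over WT treated; dashed lines mark 1.5-fold and open symbols have under 50 UMIs. Ccna2 has the largest Cd226-/- to WT fold, 4.84, and E2f1 lies under 1 on the left.

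Summed over the lists, the G2/M members of fibroblast-like cells were 2.43-fold above naive in WT treated (2.25 to 2.64), 6.07-fold in Cd226-/- treated cells (5.66 to 6.52) and 2.49-fold higher in Cd226-/- than in WT (2.35 to 2.65). The S members were 1.24-fold, 1.46-fold and 1.18-fold. With TMM scaling, which shifted the log2 folds over naive by -0.22 and -0.23, the G2/M folds over naive were 2.09 and 5.19 and the S folds 1.07 and 1.25. With the 5 richest cells of each library left out, the Cd226-/- to WT fold of the G2/M members was 3.14, and with cycling cells left out it was 1.77. With cell cycle genes kept in the clustering it was 1.42, and 8 members in place of 28 were 1.5-fold higher in Cd226-/- than in WT. The share of all genes was not taken at that setting. In the 151 fibroblast-like cells of the naive CD45+ library, 2 cycling cells brought the G2/M sum to 128 CPM.

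Different clusters held most fibroblast-like cells in naive and treated skin, so the fold was also taken within clusters of at least 100 cells in both libraries. Clusters led by Gpha2, by Smpd3 and by Cthrc1 held 29.5%, 26.8% and 15.7% of the naive cells, whereas the clusters led by Hmcn2, by Cxcl14 and by Mrgprg held 24.1%, 29.9% and 31.6% of the Cd226-/- treated cells and 17.9%, 18.0% and 23.1% of the WT treated ones. In the cluster led by Hmcn2 and Myoc the G2/M members stood at 41.5 CPM in 153 naive, 8.29 CPM in 729 WT treated and 68.5 CPM in 668 Cd226-/- treated cells. The WT to naive fold was thus 0.20 (0.130 to 0.313) there, opposite to that of the whole class, and the Cd226-/- to WT fold 8.27 (6.48 to 10.7). In the cluster led by Cxcl14 and Il33 the Cd226-/- to WT fold was 8.18 (9.84 to 80.4 CPM), in the one led by Cxcl13 and Chl1 it was 3.53 (30.9 to 109 CPM) and in the one led by Mrgprg and Aldh1a3 1.33 (56.7 to 75.2 CPM). All 4 clusters went the same way, by 1.33 to 8.27-fold, with 0 to 8 cycling cells in each library. The cluster led by Inmt and Gdf10 held 10.1 CPM in naive and 46.2 CPM in WT treated cells. An unnamed cluster led by Lrrc15, Acta2 and Col11a1 had 12 of 120 cells cycling in Cd226-/- treated skin (10.0%, 5.27 to 16.8) and 2 of 113 in WT treated skin (1.77%, 0.215 to 6.25). Macrophage markers summed to 99.3, 326 and 187 CPM in naive, WT treated and Cd226-/- treated fibroblast-like cells, with all 11 of 11 found in each. Their part in these results was not tested.

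Other G2/M genes were higher more often than all genes, and other S phase genes less clearly so. Of 69 other G2/M genes, 27 of the 47 that passed were 1.5-fold higher and 3 lower in WT treated than in naive fibroblast-like cells, 40 higher and 3 lower of 51 in Cd226-/- treated cells, and 29 higher and none lower of 55 between Cd226-/- and WT. The 3 lower genes were Hjurp, Cdc25b and Espl1 in both comparisons with naive. These counts stand beside 20%, 24.2% and 6.56% of all genes higher in the 3 comparisons. Of 42 other S phase genes, 8 were higher and 2 lower of 37 in WT treated, near the share of all genes, 13 higher and 2 lower of 39 in Cd226-/- treated cells, and 6 higher and none lower of 38 between Cd226-/- and WT. Foxm1, a transcription factor of G2/M genes, was at 0.691 CPM in naive, 0.924 CPM in WT treated and 1.68 CPM in Cd226-/- treated cells.

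Among 13 cyclin D, CDK and inhibitor genes, all of which passed, 4 were higher and 1 lower in WT treated and 5 higher and 2 lower in Cd226-/- treated than in naive cells, beside 20% and 12.0% of all genes in the first and 24.2% and 14.6% in the second comparison. Counts this small are not read as apart from these shares. Cdk6, Cdkn1c and Cdkn2a were higher in both treated libraries and Ccnd2 lower. Ccnd1, the G1 cyclin that answers growth factors, was at 60.1 CPM in naive, 43.7 CPM in WT treated and 70.3 CPM in Cd226-/- treated fibroblast-like cells, 1.61-fold higher in Cd226-/- than in WT (1.52 to 1.71). Cdkn1a, the p21 inhibitor, was at 190, 130 and 99.8 CPM. Of 14 pocket protein, E2F and antiproliferative genes, 3 were higher and 2 lower in WT treated, near the shares of all genes, and 3 higher and 5 lower in Cd226-/- treated cells. Gas1, a growth arrest gene, stood at 316, 179 and 108 CPM, and the pocket protein gene Rbl2 at 21.2, 20.5 and 12.9 CPM. Klf2, a transcription factor of resting cells, was at 262, 270 and 121 CPM. Rbl2, Gas1 and Klf2 were the 3 of this list lower in Cd226-/- than in WT, where 6.31% of all genes were lower.

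Cycling fibroblast-like cells differed from the others in these regulators too. Cdkn2c, the p18 inhibitor, was 5.60-fold higher in them (122 against 21.8 CPM), and 2.60-fold to 4.85-fold higher in cycling keratinocyte-like, lymphocyte-like, dendritic-like and macrophage-like cells. Cdk4 was 1.89-fold to 2.07-fold higher in cycling fibroblast-like, keratinocyte-like, lymphocyte-like and dendritic-like cells and 1.31-fold in macrophage-like cells, with an interval of 0.967 to 1.74 that includes 1. Cdkn1a was lower in cycling fibroblast-like (0.750), keratinocyte-like (0.434), dendritic-like (0.578) and macrophage-like cells (0.645), and 1.06-fold in lymphocyte-like cells (0.922 to 1.21). The cells of these groups were chosen by the members, not by the regulators.

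Keratinocyte-like cells were caught in too small number outside the WT treated library for folds to be counted, with 60 naive and 24 Cd226-/- treated cells. The S members Rrm2 and Tyms stood at 18.8 and 35.5 CPM in naive, 104 and 124 CPM in WT treated and 158 and 94 CPM in Cd226-/- treated cells. Ccna2 stood at 8.34 CPM (4 UMIs) in naive, 54.9 CPM (185) in WT treated and 64.1 CPM (30) in Cd226-/- treated cells. Top2a was at 148 CPM (116 to 187), 187 CPM (172 to 202) and 141 CPM (109 to 179), and Mki67 at 150, 226 and 286 CPM. Ube2c was highest in WT treated cells, at 218 CPM beside 73.0 in naive and 105 in Cd226-/- treated cells. The naive level was thus under the WT treated one for Rrm2, Tyms, Ccna2 and Ube2c without overlap of intervals, while Top2a differed little. In cycling keratinocyte-like cells keratinocyte markers held a median 0.312% of UMIs, beside 1.30% in the other keratinocyte-like cells.

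Lymphocyte-like cells had fewer S phase transcripts in treated than in naive skin. WT treated cells had 2 members higher and 8 lower than naive ones among 32 that passed, against 10.0% and 15.7% of 6746 genes. Cd226-/- treated cells had 1 higher and 19 lower, against 12.1% and 12.9% of 7108 genes, and between Cd226-/- and WT 1 was higher and 5 lower of 32, against 7.42% and 3.48% of 7033 genes. The comparisons with naive share that library. S members that passed had a median log2 difference of -0.40 in WT and -0.76 in Cd226-/- treated cells, beside -0.11 and -0.06 for all genes. G2/M members had -0.12 and -0.59.

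Among the S members Pcna stood at 100 CPM in naive, 61.9 CPM in WT treated and 67.9 CPM in Cd226-/- treated lymphocyte-like cells, a WT to naive fold of 0.618 (0.491 to 0.776). Mcm6 was at 44.7, 16.2 and 26.1 CPM, the lowest WT to naive fold at 0.363 (0.236 to 0.545). Mcm2 and Mcm5 were at 42.6 and 58.7 CPM in naive and between 17.2 and 27.6 CPM in the treated libraries. Stmn1 was at 302, 132 and 103 CPM, with a Cd226-/- to naive fold of 0.343 (0.295 to 0.397), and Hmgb2 at 1292, 832 and 636 CPM. These genes stood below naive in both treated libraries. Of the other S phase genes, 13 of 29 and 16 of 31 were lower in WT and Cd226-/- treated cells than in naive ones, beside 15.7% and 12.9% of all genes.

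G2/M members of lymphocyte-like cells split by library. Ube2c was at 165 CPM in naive, 152 CPM in WT treated and 77.4 CPM in Cd226-/- treated cells, 0.508-fold in Cd226-/- over WT (0.423 to 0.608). Cenpa was the member highest in Cd226-/- cells, at 109, 187 and 271 CPM. Top2a stood at 170, 187 and 138 CPM, and Mki67 at 136, 126 and 105 CPM. Summed, the G2/M members were 0.980-fold in WT and 0.861-fold in Cd226-/- treated cells over naive, and 0.878-fold in Cd226-/- over WT. Within the Il17a cluster, which held 73.3% to 79.0% of the class in each of these libraries, the Cd226-/- to WT fold was 0.540 (0.504 to 0.580), at 699 against 1293 CPM. The Trdc cluster went the other way, at 1457 CPM (1354 to 1567) in 125 Cd226-/- against 1047 CPM (905 to 1205) in 60 WT treated cells. Fibroblast markers summed to 45.2 CPM in naive, 823 CPM in WT treated and 719 CPM in Cd226-/- treated lymphocyte-like cells, with 8, 10 and 10 of 10 markers found. Col6a3 and Fbln1 were at 0 in naive. The part of this RNA in the result was not tested.

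Dendritic-like cells had fewer S transcripts in treated than in naive skin, while their summed G2/M members were above naive. Against naive, Cd226-/- treated cells had 6 members higher and 10 lower of 36, against 6.28% and 14.9% of 7932 genes. The 6 were all G2/M members, Ccnb1, Cenpa, Plk1, Bub1, Tpx2 and Cdc20, and 9 of 12 S members that passed were lower. The median log2 difference was -1.0 for S and 0.26 for G2/M members, beside -0.04 for all genes. Pcna was at 70.8 CPM (377 UMIs) in naive CD45+, 43.8 CPM (31) in the 83 WT treated and 37.6 CPM (71) in the 199 Cd226-/- treated cells. Mcm6 was at 27.6, 19.8 and 7.41 CPM, with a Cd226-/- to naive fold of 0.269 (0.143 to 0.465). Cdc20 went the other way, at 17.3, 36.7 and 35.5 CPM, a fold of 2.05 (1.48 to 2.84). Top2a was highest in WT treated cells, at 157 CPM beside 80.5 in naive and 70.9 in Cd226-/- treated cells. S members summed to 0.531-fold (0.475 to 0.592) and G2/M members to 1.26-fold (1.19 to 1.34) in Cd226-/- over naive. The G2/M values rest on few cells. Cycling cells, 40 in naive CD45+, 11 in WT treated and 21 in Cd226-/- treated skin, held 83.5%, 95.1% and 89.6% of the class's G2/M UMIs. With cell cycle genes kept in the clustering, only 22 of 75 cycling dendritic-like cells kept this class.

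Macrophage-like cells of WT treated skin had higher G2/M members than naive ones, with 14 members higher and 4 lower of 31, against 7.96% and 13.1% of 10087 genes. Of these 14, 13 were G2/M members. The G2/M members that passed had a median log2 difference of 0.86, beside -0.13 for S members and -0.03 for all genes. Cd226-/- treated cells had 2 higher, Mcm4 and Ube2c, and 11 lower of 29, against 9.52% and 15.3% of 10133 genes. Between Cd226-/- and WT none was higher and 6 lower of 13, against 4.83% and 4.41% of 7417 genes. E2f1 stood at 22.1 CPM (416 UMIs) in naive CD45+, 14.0 CPM (30) in WT treated and 8.32 CPM (24) in Cd226-/- treated cells. Ccnb1 was at 2.02, 7.02 and 3.47 CPM, the largest WT to naive fold at 3.48 (1.78 to 6.47). Birc5 was at 7.48, 22.0 and 7.28 CPM and was 0.331-fold in Cd226-/- over WT (0.188 to 0.565), the lowest of that comparison. Pcna, the S member with most UMIs, was at 63.0, 53.3 and 57.2 CPM.

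These macrophage values rest on few cells. The 47 WT treated Birc5 UMIs came from 9 cells, 16 of them from 1 cell. With cycling cells left out, the summed G2/M fold of WT treated over naive macrophage-like cells went from 1.63 (1.49 to 1.79) to 0.860, the other direction. The Cd226-/- to WT fold went from 0.634 to 0.875, and the count of lower members from 6 to 1, or to 2 without the 5 richest cells. For these 2 settings the share of all genes was not taken. Both clusters of the class, led by Trem2 and by Ccl8 and Folr2, had a Cd226-/- to WT fold under 1, 0.339 (0.25 to 0.455) and 0.741 (0.643 to 0.853). Fibroblast markers summed to 75.2 CPM in naive, 1537 CPM in WT treated and 549 CPM in Cd226-/- treated macrophage-like cells, with all 10 of 10 found in each. Their part in the result was not tested.

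In the remaining classes few members held enough UMIs. Langerhans or migratory dendritic-like cells had 2 members higher, Mcm7 and Ccnb2, and Top2a lower in Cd226-/- than in WT among 17, against 2.1% and 7.78% of 7824 genes. Top2a stood at 33.9 CPM in WT and 15.6 CPM in Cd226-/- treated cells, 0.460-fold (0.327 to 0.644), and Cenpa at 189 and 253 CPM. Mcm7 was at 3.15 CPM (9 UMIs) and 11.6 CPM (43). The summed G2/M members were 1.2-fold in Cd226-/- over WT, in a class where Cenpa gave 540 of the 1079 UMIs in WT and 939 of the 1688 in Cd226-/- cells. Monocyte-like cells had 0 higher and 1 lower of 8 in WT over naive (8.14% and 6.17% of genes), 2 and 2 of 12 in Cd226-/- over naive (9.67% and 6.89%) and 0 and 3 of 12 between the treated libraries (4.25% and 5.25%). Ube2c was there at 9.57, 11.4 and 3.59 CPM in naive, WT and Cd226-/- treated cells.

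WT treated endothelial-like cells had 4 members higher, Pcna, Top2a, Ube2c and Cenpf, and Mki67 lower than naive ones among 9, against 11.5% of genes in each direction. Ube2c stood at 6.41 CPM (3 UMIs, 1 cell) in naive and 52.9 CPM (58 UMIs, 11 cells) in WT treated cells, a ratio of 8.25 (2.69 to 41.2). Mki67 was at 66.2 and 43.8 CPM with an interval of the fold from 0.412 to 1.07. Dermal papilla-like cells had Mcm4 and Birc5 higher and Ube2c and Cenpa lower in Cd226-/- than in WT among 11, against 11.5% and 9.11% of genes. Ube2c was at 21.8 CPM in WT and 10.7 CPM in Cd226-/- treated cells of that class. Neutrophil-like cells had 2 members with enough UMIs against naive. Hmgb2 was lower in both treated libraries, at 660 CPM in naive, 342 CPM in WT treated and 361 CPM in Cd226-/- treated cells, where 35.1% and 33.4% of all genes were lower and 12.5% and 8.91% higher. Pcna was the other, at 24.1, 32.8 and 10.6 CPM, and between the treated libraries, where 5.38% of genes were higher and 11% lower, none was counted. Melanocyte-like cells of WT treated skin held Ube2c at 159 CPM, Top2a at 120 CPM and Pcna at 61.4 CPM, and no UMI of E2f1, Ccne2 or Cdc6.

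Over the 25 pools of a class and library with at least 100 cells, the genes most like the sum of the 38 members were found by Pearson's r of log2(CPM + 1). Of the members, Top2a (r = 0.971), Birc5 (0.969) and Ube2c (0.964) were closest, and E2f1 (0.479), Hmgb2 (0.528) and Kif23 (0.658) farthest. Of 14980 genes compared, the non-members most like the sum were Cdca8 (0.972), Smc4 (0.97), Pclaf (0.97), Cdca3 (0.968) and Tacc3 (0.967). Pools of 1 library share their depth and free RNA, members are part of their own sum, and these values are descriptions.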

How the data were processed

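The deposited files hold UMI counts per gene and barcode, which the authors made using Cell Ranger 3.1.0 and mm10 according to the submitters' processing notes; earlier filters are not stated there. The 2 antibody tags were not used. The members and gene lists were chosen with earlier results of these data known. Barcodes under 500 genes, under 1000 UMIs or over 10% mitochondrial UMIs were dropped. Doublets were called per library with Scrublet in Scanpy 1.11.5 at an expected 6%; the naive CD45+ library, where under 0.5% were called, lost the 5% with the highest scores instead. Clustering used 2000 variable genes without cell cycle genes, 30 principal components, 15 neighbours and Leiden resolution 1.0, and clusters mixing markers were split at 0.5. Classes were named from marker lists, with thresholds set after the clusters were seen. Levels are UMIs of a gene scaled to all UMIs of the class in that library (CPM), for single genes not corrected for length, so they are compared between libraries and not between genes. Folds were taken where both libraries held at least 100 cells of the class, with exact conditional binomial intervals, on the counts as deposited. The procedure was checked on simulated independent counts per gene, which hold no cells. That check cannot tell how well the intervals hold for UMIs clumped in few cells. With 1 library per group no model across genes was fitted and no p-value is given, whatever test was planned for replicates. Genes were named by a rule: all 40 accounted for, with values for the member with most UMIs of its role in a class, those with the largest and the smallest fold, and further members chosen after their values were seen. Alternatives tried were the cut, thinning, doublets, mitochondrial limit, clustering, TMM scaling, the UMI minimum, the fold and single cells or genes left out. Tools were SciPy 1.17.1 and NumPy 2.4.6 under Python 3.11.15, with igraph 0.11.9, pandas 2.3.3 and matplotlib 3.10.9.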

Additional observations from a re-analysis of the deposited data

Results flagged for a closer look

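The summed members went in different directions in different classes under the same comparison, and these differences between classes were not tested. S members were 1.24-fold (WT) and 1.46-fold (Cd226-/-) above naive in treated fibroblast-like cells but 0.676-fold and 0.595-fold in lymphocyte-like cells. The fibroblast-like folds use the naive CD45- and the lymphocyte-like ones the naive CD45+ library, and within each class both folds share the naive library.

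Between Cd226-/- and WT treated skin, S members were higher in fibroblast-like (1.18-fold), dermal papilla-like (1.23-fold) and monocyte-like cells (1.16-fold), and lower in macrophage-like (0.835-fold), lymphocyte-like (0.879-fold) and neutrophil-like cells (0.438-fold). The neutrophil-like fold (0.246 to 0.765) is of only 23 S UMIs in Cd226-/- and 34 in WT, in a class where no cell was called cycling after thinning. G2/M members were higher in Cd226-/- fibroblast-like (2.49-fold) and Langerhans or migratory dendritic-like cells (1.2-fold), and lower in dermal papilla-like (0.801-fold), macrophage-like (0.634-fold), monocyte-like (0.726-fold) and lymphocyte-like cells (0.878-fold). All of these rest on the same 2 libraries. Dermal papilla-like and monocyte-like cells thus had S and G2/M members on opposite sides of 1, but the G2/M side rests on few cells. The intervals of their S folds began at 1.009 and 1.014. Of the dermal papilla-like G2/M UMIs, 3 cycling cells per library held 331 of 376 (WT) and 221 of 250 (Cd226-/-). Of the monocyte-like ones, 4 cycling cells held 217 of 427 (WT) and 11 held 177 of 867 (Cd226-/-). Without cycling cells the monocyte-like and lymphocyte-like G2/M folds lay above 1.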

How the results depend on the processing

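Across 126 results and 1086 alternatives, 710 values were labelled as unchanged, 375 as moved and 1 as changed in direction. Shares, folds and ratios were judged by the counting interval of the value given above, which counts of members do not have. The 1 labelled as changed in direction was the WT treated to naive G2/M fold of macrophage-like cells, 0.860 without cycling cells, from 1.63. That label does not count every fold that crossed 1. Without cycling cells the Cd226-/- to WT G2/M folds of monocyte-like (0.726) and lymphocyte-like cells (0.878) crossed it too. Leaving out cycling cells, the 5 richest cells or Cenpa was chosen after seeing the data. No paired analysis was possible because each group is 1 library. In what follows the causes were not tested.

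Shares of cycling fibroblast-like cells in Cd226-/- treated, WT treated and naive skin were 2.89%, 2.52% and 1.29% at a cut of 2 members, 16.3%, 10.6% and 2.04% without thinning and 0.0734%, 0.177% and 0.096% with cell cycle genes kept in the clustering. Thinned to 1000 UMIs they were 0.222% in WT treated and 0.108% in naive skin, and at a cut of 5 members 0.0917% in naive skin. For lymphocyte-like cells in the same order they were 20.7%, 25.1% and 23.3% at a cut of 2 members, 6.96%, 10.2% and 8.96% at a cut of 5 and 19.2%, 25.2% and 31.0% without thinning. Thinned to 1000 UMIs they were 6.3% in Cd226-/- and 10.4% in WT treated skin.

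The G2/M fold of fibroblast-like cells in Cd226-/- over WT was 2.01 with doublets kept, 1.42 with cell cycle genes kept in the clustering, 2.34 at Leiden resolution 2.0, 2.80 without the richest cell, 3.14 without the 5 richest and 1.77 without cycling cells. Over naive, that of Cd226-/- was 5.09 with doublets kept, 2.37 with cell cycle genes kept, 5.19 with TMM, 7.24 without the 5 richest cells and 3.34 without cycling cells. That of WT was 1.67 with cell cycle genes kept, 2.09 with TMM and 1.89 without cycling cells. For macrophage-like cells the Cd226-/- to WT fold was 0.503 with doublets kept, 0.882 with cell cycle genes kept, 0.875 without cycling cells and 0.540 without Cenpa.

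The S fold of fibroblast-like cells over naive was 1.35 (cell cycle genes kept), 1.25 (TMM) and 1.37 (cycling cells left out) in Cd226-/- and 1.07 (TMM) in WT. For lymphocyte-like cells it was 0.448 in Cd226-/- and 0.570 in WT with cell cycle genes kept, and 0.532 in WT without cycling cells. The S to G2/M ratio of fibroblast-like cells in Cd226-/-, WT and naive skin was 1.52, 3.15 and 6.19 without Cenpa, 1.202, 2.49 and 4.83 without Pcna and Cenpa, 0.186, 0.197 and 0.285 in cycling cells only, and 1.57 in Cd226-/- with doublets kept.

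The members higher in fibroblast-like cells numbered 8 (Cd226-/- over WT), 17 (Cd226-/- over naive) and 12 (WT over naive) with cell cycle genes kept, and 10, 17 and 12 without cycling cells. The members lower in macrophage-like cells between Cd226-/- and WT numbered 23 with no UMI minimum, 17 at 20 UMIs, 3 at 2-fold, 2 without the 5 richest cells and 1 without cycling cells. The share of all genes was not taken at these alternative settings. The counts of this paragraph therefore have no background and cannot be read as a result about the members.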
